A study of Mus musculus with 8 samples.

Results

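Cdh1 and 6 pericentral zonation genes, Glul, Oat, Slc1a2, Rhbg, Axin2 and Tbx3, were followed across 8 arrays of mouse liver RNA. The 7 genes were selected on measured values: Cdh1 was chosen by its lower level at 456 than at 90 days of age, and it was set beside genes expressed around the central vein. The age differences of the 7 genes are therefore given as a description, with no test. All 7 had at least 1 probe above the filter on low values, which left 8945 genes of the 16593 that had a named probe.

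Hepatocytes along the liver lobule differ in function by their distance from the portal and central veins. Wnt ligands and R-spondin 3 from endothelial cells near the central vein keep beta-catenin active in the neighbouring hepatocytes, which take up glutamate and ammonia and form glutamine. Periportal hepatocytes carry out urea synthesis, gluconeogenesis and amino acid breakdown, and in mice they hold most of the hepatocyte E-cadherin, the adhesion protein that Cdh1 encodes. E-cadherin binds beta-catenin at adherens junctions and is also made by bile duct cells.

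The livers came from female C57/BL6 mice that had fasted for 6 h. Corn oil made up 5% or 21% (w/w) of the diet, the mice were 90 or 456 days old, and they belonged to the F1 or the F3 generation. Every combination was read on 1 array and none was repeated, which gave 4 arrays for each diet, each age and each generation. The labels do not say whether an array held RNA of 1 animal or of a pool. Error was taken from an additive model of the 3 factors, and it measures the spread of these arrays around that model. As no combination was repeated, any interaction of the factors is part of this error. In whole-liver RNA, fewer cells of a type and less RNA per cell cannot be told apart.

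The arrays had a mean intensity of 457 each and medians from 123.2 to 123.5. Of 8 hepatocyte markers 6 were on the array: Apoa1 (14.57 to 14.76 log2 intensity), Ttr (14.53 to 14.60) and Hnf4a (10.69 to 11.59) were bright on all 8 arrays, whereas the probes of Alb (8.09 to 9.04) and Fgb (6.92 to 7.10) were dim and that of Tat was under the filter. With age Alb differed by -0.38 and Hnf4a by -0.32 (adjusted p by limma 0.207 and 0.441), whereas Apoa1 differed by -0.05, Ttr by 0.02 and Fgb by -0.01. Alb (9.04) and Hnf4a (11.59) were both highest in the F1 array of 5% fat at day 90. The F1 array of 5% fat at day 90 stood apart, correlating with the rest at 0.977 on average, where the other 7 reached 0.986 to 0.990. Its skeletal muscle markers had a median of 8.62 log2 intensity, followed by 8.15 in the F3 array of 5% fat at day 456 and 6.90 to 7.19 elsewhere. Transcripts of the exocrine pancreas had a median of 8.82 in the F3 array of 5% fat at day 90, of 9.41 in the F1 array and 10.20 in the F3 array of 5% fat at day 456, and of 6.87 to 6.98 in the other 5. Within 5% fat the pancreas transcripts thus moved with age, whereas all 4 arrays of 21% fat were near the filter bound of 6.95.

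RefSeq promoter sequences of assembly GRCm38.p6 matched 4 of the 7 genes, Glul, Oat, Slc1a2 and Axin2. They were searched for the TCF/LEF core, the motif bound by the partners of beta-catenin (CTTTGA or CTTTGT on either strand), and for the E-boxes CAGGTG and CACCTG, which the Cdh1 repressors of the Snail and Zeb families bind. Of 32851 promoters of 300 bases, 31.2% held a TCF/LEF core and 20.2% an E-box. Among the 4 genes Slc1a2 held the TCF/LEF core, at 2 places, and the others held neither motif in this window. The table gives 1 start per gene. Those of Slc1a2 and Axin2 lie inside the annotated gene span, downstream of its outermost start. The 250 bases before the listed start of Slc1a2 (chr2:102706188-102706437, plus strand), which encodes a glutamate transporter, are shown with both cores in capitals, beside those before the listed start of Glul (chr1:153899679-153899928, plus strand), which encodes glutamine synthetase, as the pair of genes for uptake and use of glutamate.
Slc1a2: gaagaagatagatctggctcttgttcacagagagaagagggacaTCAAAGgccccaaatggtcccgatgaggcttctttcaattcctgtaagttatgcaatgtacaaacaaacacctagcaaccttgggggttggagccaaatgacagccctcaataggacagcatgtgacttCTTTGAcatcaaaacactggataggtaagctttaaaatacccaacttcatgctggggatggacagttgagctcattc
Glul: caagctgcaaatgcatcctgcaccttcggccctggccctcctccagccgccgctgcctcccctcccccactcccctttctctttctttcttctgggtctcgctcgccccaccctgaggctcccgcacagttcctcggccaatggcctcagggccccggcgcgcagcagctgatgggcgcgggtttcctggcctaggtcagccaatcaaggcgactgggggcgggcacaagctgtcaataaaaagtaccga

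Cdh1 (gene 12550, chr8:106603350-106670247 in GRCm38.p6) was read by 1 probe. At day 90 its log2 intensity was 8.49 in F1 and 8.85 in F3 on 5% fat, and 8.51 in F1 and 8.62 in F3 on 21% fat. At day 456 it was 7.63 in F1 and 7.50 in F3 on 5% fat, and 7.79 in F1 and 7.70 in F3 on 21% fat. The lowest array at day 90 was above the highest at day 456 by 0.70, and the groups did not overlap. On the linear scale the signal ran from 361 to 461 at day 90 and from 181 to 222 at day 456.

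The mean of Cdh1 was 8.62 at day 90 and 7.65 at day 456, a difference of -0.96 ± 0.11 on the log2 scale (SE of the additive model, n = 4 arrays per age), which is 1.95-fold lower. Cdh1 was lower at day 456 in each of the 4 matched pairs, by -0.87 (F1) and -1.35 (F3) on 5% fat and by -0.72 (F1) and -0.92 (F3) on 21% fat. On 21% fat alone, where pancreas transcripts were near the filter bound, the difference was -0.82. With the median pancreas marker level as a covariate it was -0.94. The lowest deposited signal of each array was 101 to 104, and whether background had been subtracted was not given. After subtraction of the 5th percentile of each array (pseudocount 16) the difference was -1.48, or 2.80-fold. Among all 8945 genes, 0.0335% were lower and 0.0671% higher at day 456 past an adjusted p of 0.05 by limma, and 4.89% were lower and 3.22% higher with no overlap of the 4 arrays a side. These shares are the background for the description, since the choice of Cdh1 used this contrast.

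**Figure D1:**
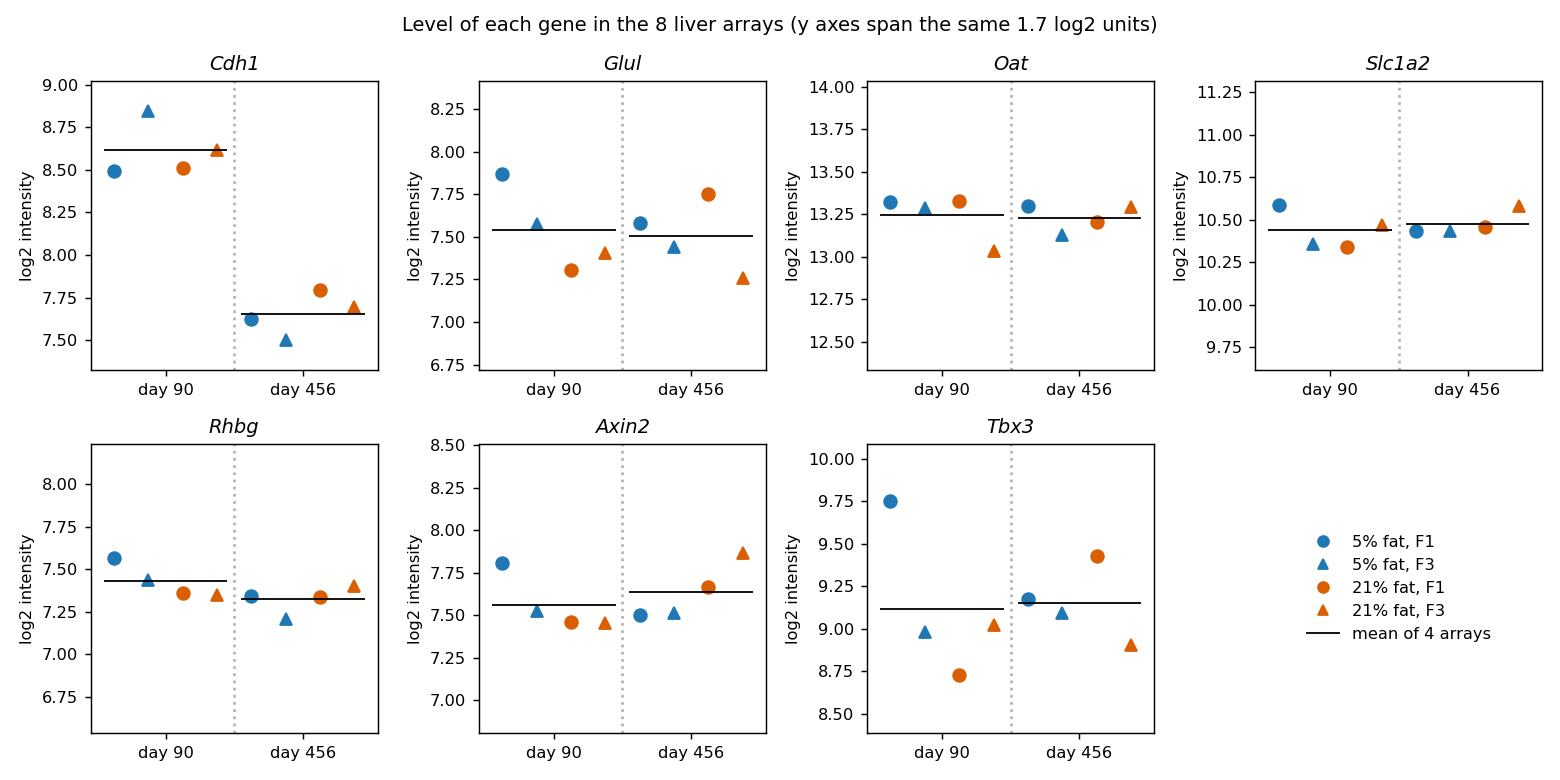
Log2 intensity (y axis) of Cdh1 and the 6 pericentral genes in each of the 8 arrays, by age (x axis), with colour for dietary fat, shape for generation and a black line for the mean of the 4 arrays of an age. Cdh1 is at 8.49 to 8.85 at day 90 and at 7.50 to 7.79 at day 456, while the arrays of both ages overlap for each of the other 6 genes.

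Glul (chr1:153899929-153909723) is the textbook marker of the hepatocytes that line the central vein. Its probe read 7.87 and 7.58 log2 intensity in F1 and F3 on 5% fat at day 90, and 7.31 and 7.41 on 21% fat. At day 456 it read 7.58 and 7.44 on 5% fat, and 7.75 and 7.26 on 21% fat. The ages overlapped, with the highest value in the F1 array of 5% fat at day 90 and the lowest in the F3 array of 21% fat at day 456. The age difference was -0.03 ± 0.11 (SE), made of 3 pairs that were lower at day 456 (-0.29, -0.14 and -0.15) and the F1 pair of 21% fat, which was higher by 0.44. All 8 Glul values lay within 1 log2 unit above the filter bound.

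Oat (chr7:132557475-132576398) encodes ornithine aminotransferase, which links ornithine to glutamate. It read 13.32 and 13.28 log2 intensity in F1 and F3 on 5% fat at day 90, and 13.33 and 13.03 on 21% fat. At day 456 the values were 13.30 and 13.13 on 5% fat, and 13.20 and 13.29 on 21% fat. The ages overlapped and the 8 values spanned 0.30 log2 units. The age difference was -0.01 ± 0.08 (SE), with pairs between -0.16 and 0.26.

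Slc1a2 (chr2:102658239-102790784) encodes the glutamate transporter that pericentral hepatocytes use for uptake. Its brightest probe read 10.59 and 10.36 in F1 and F3 on 5% fat at day 90, and 10.34 and 10.47 on 21% fat. At day 456 the values were 10.43 and 10.43 on 5% fat, and 10.46 and 10.58 on 21% fat. The 8 values spanned 0.25 log2 units, the smallest range of the 7 genes, and the age difference was 0.04 ± 0.10 (SE). A second probe, designed on another transcript of the gene, disagreed on the order of arrays: it was lowest (9.38) in the F1 array of 5% fat at day 90, where the brightest probe was highest. Its age difference was 0.14, and those of the other 2 probes were 0.07 and 0.00, with the dimmest probe (mean 6.90) under the filter bound.

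Rhbg (chr3:88242874-88254739) encodes an ammonium transporter of the Rhesus family. It read 7.57 and 7.44 in F1 and F3 on 5% fat at day 90, and 7.36 and 7.35 on 21% fat. At day 456 it read 7.34 and 7.21 on 5% fat, and 7.34 and 7.40 on 21% fat. The ages overlapped. The age difference was -0.11 ± 0.06 (SE), and it came from the 5% fat arrays, with -0.22 in F1 and -0.23 in F3 against -0.03 and 0.05 on 21% fat. With the pancreas marker level as a covariate the difference was 0.00.

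Axin2 (chr11:108917828-108950783) is both a target of Wnt signalling and part of the complex that degrades beta-catenin. It read 7.81 and 7.53 in F1 and F3 on 5% fat at day 90, and 7.46 and 7.45 on 21% fat. At day 456 it read 7.50 and 7.52 on 5% fat, and 7.66 and 7.87 on 21% fat. The age difference over all pairs was 0.07 ± 0.11 (SE): both 5% fat pairs were lower at day 456 (-0.31 and -0.01) and both 21% fat pairs higher (0.20 and 0.41). The highest values were thus in the F3 array of 21% fat at day 456 and the F1 array of 5% fat at day 90, groups at opposite ends of the design.

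Tbx3 (chr5:119670534-119684724) encodes a T-box transcription factor that beta-catenin induces in pericentral hepatocytes. It read 9.75 and 8.98 in F1 and F3 on 5% fat at day 90, and 8.72 and 9.02 on 21% fat. At day 456 it read 9.18 and 9.09 on 5% fat, and 9.43 and 8.90 on 21% fat. The spread between arrays was the widest of the 6 pericentral genes, with a range of 1.02 log2 units and a residual SD of 0.26. The age difference was 0.03 ± 0.19 (SE), from pairs that ran from -0.57 (F1, 5% fat) to 0.70 (F1, 21% fat). The other 2 Tbx3 probes, dimmer, gave age differences of 0.02 and 0.01.

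The F1 array of 5% fat at day 90, which stood apart from the others, held the highest value of Glul, Slc1a2, Rhbg and Tbx3. Without it the age differences were 0.04 for Glul, 0.11 for Slc1a2, -0.06 for Rhbg, 0.20 for Axin2 and 0.22 for Tbx3. The part of its muscle transcripts in these values was not tested. Without it the Cdh1 difference was -1.002.

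Set against each other, the age difference of Cdh1 was below that of each pericentral gene in 4 of 4 matched pairs. The mean of Cdh1 minus the pericentral gene ran from -0.86 (Rhbg) to -1.04 (Axin2). The narrowest margin in a single pair was -0.30, against Tbx3. This contrast follows from the choice of Cdh1 and carries no test. Across the 8 arrays the correlation of Cdh1 with Rhbg was 0.57, with Glul 0.11, with Oat 0.08, with Tbx3 -0.08, with Axin2 -0.23 and with Slc1a2 -0.26, given as description only.

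**Figure D2:**
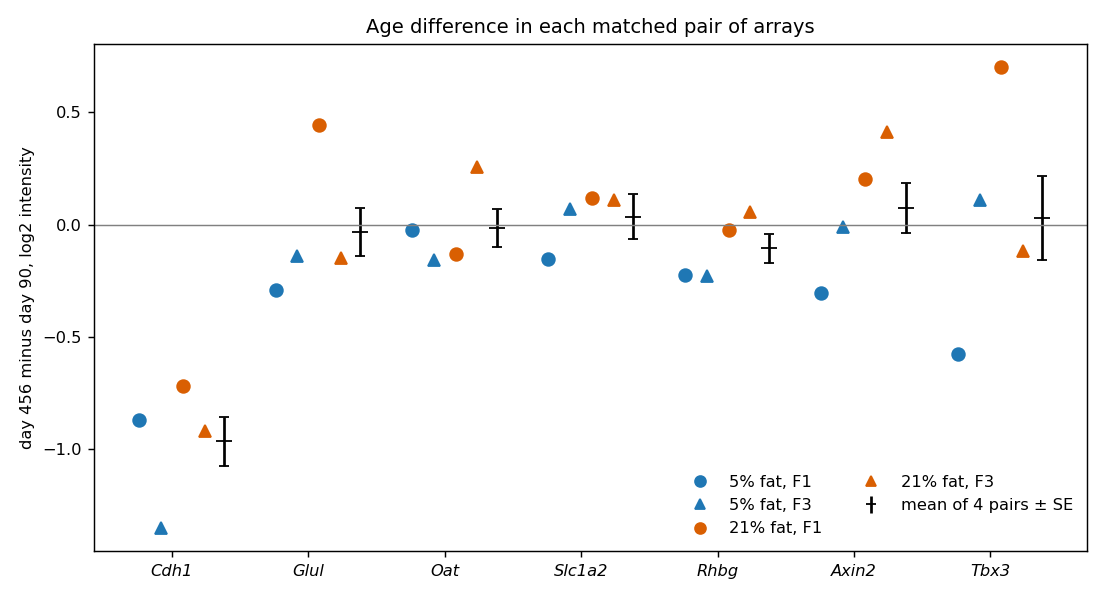
Day 456 minus day 90 in log2 intensity (y axis) for each of the 4 matched pairs of arrays, with colour for dietary fat and shape for generation, and the mean of the 4 pairs with its standard error in black, for each gene (x axis). All 4 Cdh1 points are between -1.35 and -0.72, and each of the 6 pericentral genes has points on both sides of 0.

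In order of level, the 4 day 90 arrays of Cdh1 all came before the 4 day 456 arrays, and 2 of the 7 gaps between neighbouring arrays were larger than the residual SD of 0.15, that between the ages (0.70) and that between the top pair of arrays (0.23). For Oat, Slc1a2 and Axin2 none of the 7 neighbouring gaps reached the residual SD, and for Glul 1 and for Tbx3 1 did. Rhbg had 2 such gaps, with a residual SD of 0.09.

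No diet or generation difference passed for any of the 7 genes. By limma, 0% of the 8945 genes passed for diet and 0% for generation, and at an unadjusted p under 0.05 there were 288 genes (3.22%) for diet and 191 (2.14%) for generation, with no member among either. For Cdh1 the 21% minus 5% fat difference was 0.04 (95% interval -0.21 to 0.29) and the F3 minus F1 difference 0.06 (-0.19 to 0.31). The widest estimates were those of Tbx3, -0.23 (-0.66 to 0.20) for diet and -0.27 (-0.70 to 0.16) for generation. Glul came next, with -0.19 (-0.43 to 0.06) for diet and -0.21 (-0.46 to 0.04) for generation, lower on 21% fat in 3 of 4 pairs and lower in F3 in 3 of 4 pairs. Estimates of the other 4 genes lay between -0.04 and 0.02 for diet and between -0.10 and 0.00 for generation. Adjusted p by limma was 1.0 for diet in all 7 and from 0.988 to 0.999 for generation. Leaving out 1 array at a time, the diet difference ran from -0.36 to -0.02 for Tbx3 and from -0.30 to -0.06 for Glul, and the generation difference from -0.48 to -0.08 and from -0.33 to -0.09. With the pancreas marker level as a covariate the diet difference was -0.81 for Tbx3, -0.45 for Glul and -0.23 for Rhbg, and it did not pass for any of the 7 (smallest adjusted p by limma 0.107). No gene of the 8945 passed in that fit, and 1880 had an unadjusted p under 0.05. The marker level was low on all arrays of 21% fat and raised on 3 of 4 arrays of 5% fat. It thus partly followed diet, and the 2 cannot be fully told apart in these estimates.

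Whether the age difference depended on diet was tested by an interaction term. The interaction, the age difference on 21% fat minus that on 5% fat, was positive for all 7 genes: 0.52 ± 0.32 for Tbx3, 0.47 ± 0.16 for Axin2, 0.36 ± 0.18 for Glul, 0.29 ± 0.20 for Cdh1, 0.24 ± 0.10 for Rhbg and 0.16 for both Oat and Slc1a2 (SE 0.17 and 0.20). None passed, and neither did any of the 8945 genes (0%); the smallest adjusted p of a member by limma was 0.403, for Axin2. At an unadjusted p under 0.05 there were 1055 genes (11.8%), Axin2 and Rhbg among them. The median interaction over all genes was 0.04, so most genes had a positive one too. Without the F1 array of 5% fat at day 90 the interaction of Axin2 was 0.29 and that of Slc1a2 0.00. Without the F3 array of 5% fat at day 90 that of Axin2 was 0.64 and that of Cdh1 0.09. Each of these fits left a single array for 5% fat at day 90. The median interaction over all genes was 0.02 without the F1 array and 0.06 without the F3 array. As each array was left out, the interaction ran from 0.15 to 0.90 for Tbx3, from 0.16 to 0.57 for Glul and from 0.03 to 0.28 for Oat. The pancreas transcripts differed with age within 5% fat and not within 21% fat, and their part in these interactions was not tested. Age by generation and diet by generation gave 0% of genes each (260 genes, 2.91%, and 105 genes, 1.17%, at an unadjusted p under 0.05), with smallest adjusted p among members of 0.996 and 1.0 by limma.

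Glul and Tbx3 varied together. Over the 8 arrays their Pearson r was 0.92 (exact permutation p = 0.000967, two-sided, adjusted 0.00484 over 5 relations) and Spearman's rho was 0.90 (exact permutation p = 0.00456, adjusted 0.0228). The permutation treats the arrays as exchangeable, although they differ in diet, age and generation. A shared effect of a factor or of a single array is therefore part of r. Without the F1 array of 5% fat at day 90 and the F3 array of 21% fat at day 456, the 2 farthest from the median of Glul, r was 0.88. Tbx3 stood at place 32 among 8944 genes ranked by their correlation with Glul, so 31 genes followed Glul more closely. With the other pericentral genes r was 0.47 for Rhbg (exact permutation p = 0.232, adjusted 0.580), 0.26 for Axin2, 0.25 for Slc1a2 and 0.16 for Oat, with rho from 0.02 to 0.24. Without the same 2 arrays r of Glul and Axin2 was 0.88, that of Rhbg 0.17, that of Slc1a2 0.40 and that of Oat 0.10, so the values for Axin2 and Rhbg turned on these arrays. The 5 genes most like Glul were Marchf5 (r 0.97), a ubiquitin ligase of mitochondria, Ndufb4 (0.97), a subunit of respiratory complex I, Echdc1 (0.97), an enzyme that removes ethylmalonyl-CoA, Slc50a1 (0.96), a sugar transporter, and Gna14 (0.95), a G protein subunit.

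**Figure D3:**
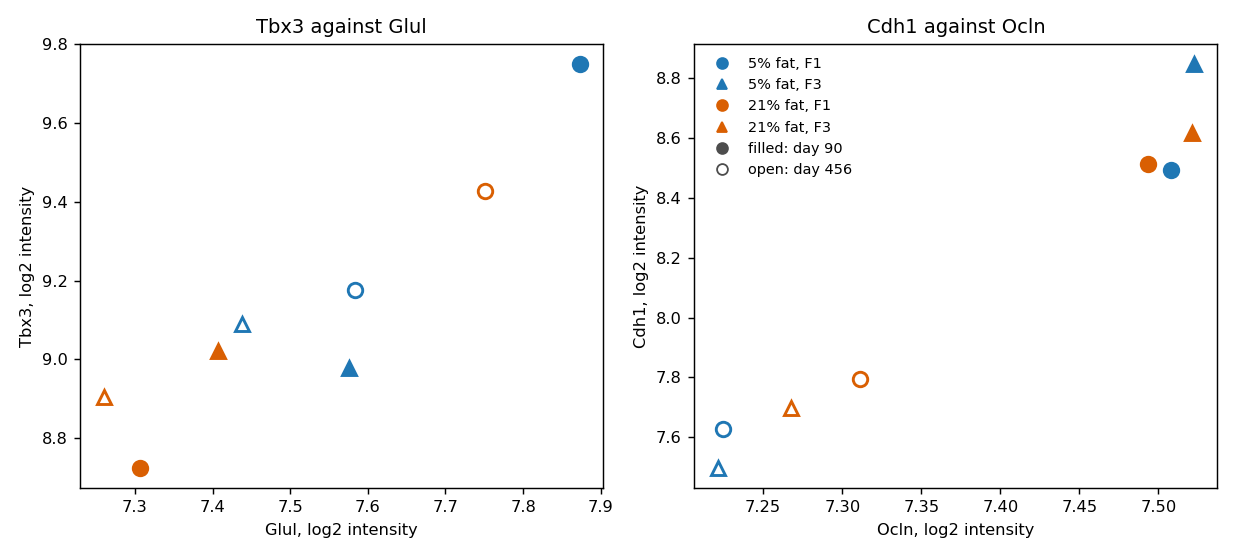
Left, log2 intensity of Tbx3 (y axis) against that of Glul (x axis); right, that of Cdh1 (y axis) against that of Ocln (x axis), 1 point per array, with colour for dietary fat, shape for generation, filled points for day 90 and open points for day 456. Tbx3 rises with Glul (r 0.92) with both ages mixed along the line, whereas Cdh1 and Ocln (r 0.98) form a day 90 and a day 456 group with a gap between them.

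Other genes of the same zones were described through lists of zonation genes. Of 24 periportal genes 20 were tested, and at day 456 17 were lower and 3 higher, with a median difference of -0.27 against -0.02 over all genes. In the main setting no periportal gene passed the adjusted threshold. At an unadjusted p under 0.05, 11 were lower (1091 genes, 12.2% of all, reached that in either direction). With no overlap between ages 6 of 20 were lower, against 4.89% of all genes. With the pancreas marker level as a covariate 1 periportal gene passed, lower (28 of 8945 genes passed in either direction). Without the F1 array of 5% fat at day 90, 2 passed, lower (23 of 8945), and none with any other array left out. Etnppl, an enzyme of phosphoethanolamine breakdown, read 8.59 to 9.34 at day 90 and 8.13 to 8.33 at day 456, a difference of -0.78 ± 0.14 (adjusted p by limma 0.0937). All 4 of its day 90 values were above all 4 of day 456. Without the F1 array of 5% fat at day 90 the Etnppl difference was -0.94 (adjusted p by limma 0.0083). With any other array left out its adjusted p by limma was 0.127 to 0.456.

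Hal, which starts the breakdown of histidine, read 12.70, 12.54, 12.64 and 12.27 at day 90 and 11.86, 11.96, 12.10 and 11.85 at day 456 (in each case F1 and F3 on 5% fat, then F1 and F3 on 21% fat), a difference of -0.60 ± 0.10 (adjusted p by limma 0.0853). The ages did not overlap for Hal either. Aldh1b1, a mitochondrial aldehyde dehydrogenase, differed by -0.58 ± 0.16 with no overlap, and Hsd17b6, a steroid dehydrogenase, by -0.69 ± 0.20 with 1 pair the other way. The shift of the list was larger on 5% fat (median -0.48, 17 of 20 lower) than on 21% fat (-0.15, 15 of 20 lower), a difference that was not tested. With the pancreas marker level as a covariate the median was -0.16, with 17 of 20 lower.

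Of 24 pericentral genes 17 were tested, with 12 lower and 5 higher and a median of -0.06. At an unadjusted p under 0.05, 3 were lower and 1 higher (12.2% of all genes in either direction). With no overlap between ages 2 were lower and 1 higher, against 4.89% and 3.22% of all genes. Cyp1a2, a drug-metabolising cytochrome P450, fell with age: it read 11.52 to 11.87 at day 90 and 10.68 to 11.14 at day 456, a difference of -0.73 ± 0.09 (adjusted p by limma 0.0409). Its ages did not overlap, and the difference lay between -0.86 and -0.61 in the 19 alternative settings, of which 9 kept the call and 10 did not (adjusted p by limma 0.0248 to 0.438). Avpr1a, a vasopressin receptor, differed by -0.56 ± 0.16 without overlap, Slco1b2, an uptake transporter for organic anions, by 0.48 ± 0.29 and Cyp2c50, another P450, by -0.36 ± 0.15, none of which passed. Without the F1 array of 5% fat at day 90 these differences were -0.37 for Avpr1a, 0.09 for Slco1b2, which read 9.31 there and 10.37 to 11.09 elsewhere, and -0.23 for Cyp2c50. Without the F3 array of 5% fat at day 90 the list had 9 of 17 lower, with a median of 0.00.

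**Figure D4:**
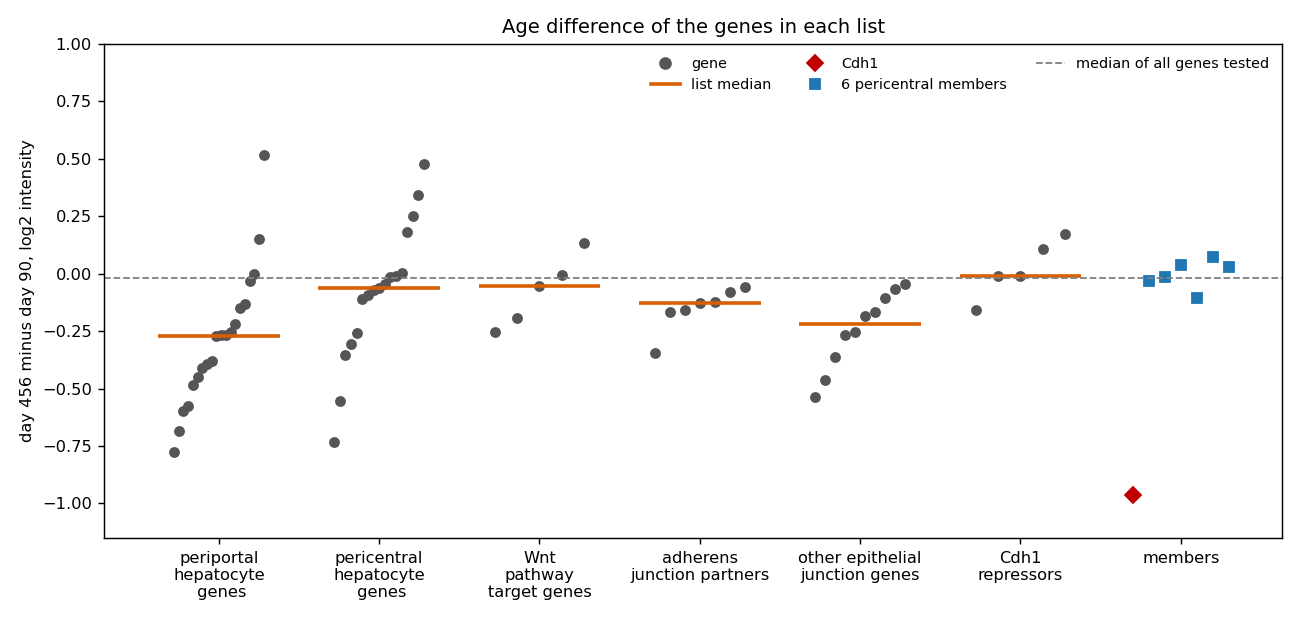
Day 456 minus day 90 in log2 intensity (y axis) for each tested gene of 6 gene lists and for the 7 genes (x axis), with the list median as an orange bar and the median of all genes tested (-0.02) as a dashed line. Most periportal points lie below the dashed line (median -0.27), the pericentral list is centred near it (-0.06), and Cdh1 at -0.96 is below all points shown.

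Among genes of the Wnt pathway no age difference passed. Of 10 target genes 5 were tested, 4 lower and 1 higher (median -0.05). Notum, a secreted Wnt inhibitor, differed by -0.25 ± 0.10 with no overlap. Ccnd1, cyclin D1, differed by -0.19 ± 0.13 with overlap. Lgr5, a receptor for R-spondins, was between 7.22 and 7.29 at day 90 and between 7.36 and 7.40 at day 456 (0.14 ± 0.04), with no overlap in the opposite direction and all values within 1 log2 unit of the filter bound. Of 15 ligands, receptors and core components 9 were tested, with 6 lower and 3 higher (median -0.03), led by Ctnnb1, beta-catenin itself, at -0.17 ± 0.15, and Rspo3, R-spondin 3, at 0.16 ± 0.08.

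Junction genes were lower at day 456 without passing in the main setting. The adherens junction partners of E-cadherin had 7 of 7 tested genes lower (11 listed, median -0.13). Over all genes the median was -0.02, so most genes were lower too. Vcl, which ties the junction to actin, led at -0.34 ± 0.19 (-0.57 to -0.22 as each array was left out). Next came Ctnnb1, which this list shares with the Wnt core, at -0.17 (-0.33 to -0.06 as each array was left out). Of the other epithelial junction genes 10 of 10 tested were lower (14 listed, median -0.22), 5 of them at an unadjusted p under 0.05. Of all genes 12.2% reached that in either direction. Gjb1, the main hepatocyte connexin, differed by -0.54 ± 0.17 (-0.67 to -0.36 as each array was left out). Cldn1, a claudin of tight junctions, differed by -0.46 ± 0.12. Dsg2, a desmosomal cadherin, differed by -0.36 ± 0.13, and Cldn3, another claudin, by -0.27 ± 0.11. On 5% fat alone 6 of 7 adherens genes and 10 of 10 other junction genes were lower, with medians of -0.11 and -0.39. There 1 of the other junction genes passed, where 153 of 8945 genes passed in either direction. On 21% fat alone 4 of 7 adherens genes and 6 of 10 other junction genes were lower, with medians of -0.05 and -0.08. With the pancreas marker level as a covariate 6 of 7 (median -0.05) and 7 of 10 (-0.09) were lower. The Cdh1 difference on the same 21% fat arrays was -0.82.

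The Cdh1 repressors gave 5 tested genes of 8, with 3 lower and 2 higher (median -0.01). Zeb1 differed by 0.17 ± 0.09 and Zeb2 by -0.16 ± 0.15, which was -0.01 without the F1 array of 5% fat at day 90, and none passed. Genes that handle glutamate and ammonia beside Glul, Oat, Slc1a2 and Rhbg gave 15 tested of 19, with 9 lower and 6 higher (median -0.11). None passed in the main setting. Without the F1 array of 5% fat at day 90, 1 of them passed, lower, where 23 of 8945 genes passed in either direction. Glud1, glutamate dehydrogenase, was 9.39 in the F1 array of 5% fat at day 90 and 11.16 to 11.86 in the other 7, and its difference of 0.75 ± 0.37 was 0.25 without that array. Asns, asparagine synthetase, differed by -0.37 ± 0.22, but it read 8.29 in the F1 array of 21% fat at day 90 and 7.02 to 7.33 in the other 7, and without that array the difference was -0.06. Slc38a3, a glutamine transporter, differed by -0.34 ± 0.11. No gene of these lists passed for diet or generation.

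The genes whose levels followed Cdh1 most closely over the 8 arrays were Ocln (r 0.98), Kif22 (0.95), Ccl21b (0.94), Mcph1 (0.94) and Ccl21a (0.94). Ocln, the tight junction protein occludin, was between 7.49 and 7.52 at day 90 and between 7.22 and 7.31 at day 456, a difference of -0.25 ± 0.04 (adjusted p by limma 0.0761) with no overlap. Kif22 is a kinesin of mitosis and Mcph1 a protein of chromosome condensation. Ccl21a and Ccl21b are near-identical chemokine genes whose probes may read the same transcripts, and both are uncertain as separate genes. The genes that ran most opposite to Cdh1 were Arl11 (r -0.98), a small GTPase, Gltp (-0.98), a glycolipid transfer protein, Camp (-0.98), an antimicrobial peptide of neutrophils, Mzb1 (-0.97), a chaperone of plasma cells and B cells, and Pkm (-0.97), the pyruvate kinase of tissues other than hepatocytes. All of these correlations share the age contrast by which Cdh1 was chosen, and are a description over 8 arrays.

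Markers of other cells that make E-cadherin or could change its share were read beside it. Of 12 bile duct markers 9 were on the array and 4 above the filter. The summed intensity of the 9 was 1122 to 1144 at day 90 and 1107 to 1158 at day 456. Their median was 6.89 to 6.97 log2 intensity per array, at the filter bound. The sum is thus mostly signal near background and does not measure bile duct content. Krt7 (6.97 to 7.07) and Krt19 (6.90 to 7.03), which define bile duct cells, were at or near the filter bound of 6.95 on all 8 arrays. The 4 macrophage markers summed to 3038 to 4414 at day 90 and 4409 to 5291 at day 456, ranges that overlap at their ends. Of these Vsig4 differed by 0.79 ± 0.15 (adjusted p by limma 0.0960), while Clec4f differed by 0.14, Marco by 0.00 and Adgre1 by -0.06. The 19 pancreas markers, an epithelium that also makes E-cadherin, summed to 2314 to 9376 at day 90 and 2489 to 25662 at day 456, highest on the 2 arrays of 5% fat at day 456, where Cdh1 was lowest, and next highest on the F3 array of 5% fat at day 90, where Cdh1 was highest. The part of Vsig4-expressing cells in the Cdh1 difference was not tested.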

How the data were processed

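Liver total RNA of 8 samples was hybridised to Illumina bead arrays, per the labels' protocols after Trizol extraction and a Bioanalyser check. The authors deposited 1 linear intensity per probe and array. How the authors normalized them was not given in the sources used here, and deposited intensity means are equal across arrays, so some scaling between arrays preceded deposition. Values were log2 transformed. Of 25697 probes 23978 carried 1 gene symbol, 0 several and 1719 none. Probes with a mean log2 intensity over 6.95, the median of probe means, were kept, and each gene was read by its brightest probe (8945 genes). The filter used the mean over all arrays.

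Differences, standard errors and adjusted p came from limma 3.58.1 in R 4.3.3: an additive 3-factor model (4 residual degrees of freedom), variances moderated towards a trend on intensity, and Benjamini-Hochberg adjustment over all genes, two-sided, at 0.05. Interactions were added 1 at a time. The script was tested on simulated data. Correlations used exact permutation with scipy 1.17.1, and figures matplotlib 3.10.9.

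The members and lists were chosen with earlier results of these data known. The hepatocyte and macrophage markers named were read for cell content. Named genes were the 7 members, the 2 to 4 genes of each list with the largest absolute age difference, and the 5 most and least like Cdh1 and the 5 most like Glul. Lgr5 fell under this rule and Ocln through its likeness. Alternatives were other scalings, background subtraction, other filters, probes and variance models, 1 factor in the model, 21% fat alone, a pancreas covariate and leaving out each array; 5% fat alone, the list counts and named list genes on fewer arrays and the settings for Cyp1a2 were added after seeing the data. Levels of different probes are not compared. The number of arrays limits the precision.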

Additional observations from a re-analysis of the deposited data

Results flagged for a closer look

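With 7 genes and 3 interactions there were 21 combinations, and each was looked at from both of its factors. An effect was flagged when it ran one way in every pair of one group and the opposite way in every pair of the other. Axin2 by age and diet was one: its age difference was -0.31 and -0.01 on 5% fat and 0.20 and 0.41 on 21% fat, and its diet difference was accordingly -0.34 and -0.08 at day 90 and 0.16 and 0.35 at day 456 (interaction 0.466, adjusted p by limma 0.403). Cdh1 was higher in F3 than in F1 at day 90 (by 0.35 and 0.10) and lower at day 456 (-0.13 and -0.10), an interaction of -0.341 (adjusted p by limma 0.996). Axin2 was lower in F3 at day 90 (-0.28 and -0.01) and higher at day 456 (0.01 and 0.20), an interaction of 0.253 (adjusted p by limma 0.996). By its brightest probe, Slc1a2 was lower in F3 on 5% fat (-0.23 and -0.003) and higher on 21% fat (0.13 and 0.12), an interaction of 0.239 (adjusted p by limma 1.0). Its other probes above the filter bound did not share this pattern. The second probe read 9.38 in F1 and 9.66 in F3 on 5% fat at day 90. The third read 8.16 in F1 and 7.92 in F3 on 21% fat at day 456. None of these interactions passed, and each group held 2 pairs, so 2 pairs of like sign in a group were enough for a flag. The share of all genes with such a pattern was not counted. The differences of -0.01, 0.01 and -0.003 were far smaller than the residual SD of their genes (0.16 for Axin2 and 0.14 for Slc1a2).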

How the results depend on the processing

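The age difference of Cdh1 stayed below 0 in all settings run, from -1.48 with background subtraction to -0.82 on 21% fat alone (-1.11 on 5% fat alone), and from -1.04 to -0.85 as each array was left out. No member passed for diet, generation or an interaction in any setting in which that term was run. The pancreas covariate was run for age and diet, each diet alone for age and generation, and 1 factor in the model without interactions. Of 142 age values of the members, 11 moved by more than the residual SD. The small diet and generation estimates changed sign in 17 of 123 and 14 of 130 values, all without passing; the cause was not tested. For diet, the pancreas covariate, whose level partly followed diet, gave -0.0036 for Cdh1, -0.23 for Slc1a2 and -0.40 for Axin2 as changes of sign. It gave -0.81 for Tbx3, -0.45 for Glul and -0.23 for Rhbg in the same direction. Quantile normalization gave -0.0014 for Slc1a2. For generation, Slc1a2 was -0.0040 with quantile normalization, -0.0067 with the mean of its probes and -0.12 on 5% fat alone, and 21% fat alone gave 0.027 for Rhbg and 0.095 for Axin2. Leaving out 1 array at a time, the diet difference ran from -0.090 to 0.15 for Axin2, from -0.044 to 0.15 for Cdh1, from -0.11 to 0.024 for Oat, from -0.086 to 0.023 for Rhbg and from -0.040 to 0.086 for Slc1a2. The generation difference ran from -0.13 to 0.10 for Axin2, from -0.053 to 0.14 for Cdh1 and from -0.047 to 0.081 for Slc1a2. A filter at the 75th percentile left no value for Glul, Rhbg and Axin2. Signal close to background limits Glul, Rhbg and Axin2; after background subtraction the age difference of Rhbg was -0.24.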
